A study of Mus musculus with 6 samples.

Results

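The genes examined encode 10 proteins by which the kidney tubule reabsorbs sodium and chloride and handles potassium, or which regulate that transport: Slc9a3, Slc12a1, Slc12a3, Scnn1a, Scnn1b, Scnn1g, Kcnj1, Wnk1, Wnk4, and Nedd4l. They were chosen by name, as every non-control probe whose gene name in the scanner output is one of the 10. The arrays read 37028 genes with a tested probe in all. The rule gave 21 of the 56605 probes on the array, and all 21 were among the 56097 probes that passed the detection filter (detected by the scanner software on 1 array or more, at a detection p under 0.05). The rule itself uses no measured value, but the members were chosen with earlier results of these data known.

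The left kidneys came from male mice of 8 weeks that had been without food for 20 h. WT mice were C57BL/6J, and Selenbp1-KO mice lacked Selenbp1, a selenium-binding protein abundant in kidney, in the whole animal and not in the tubule alone. Each genotype had 3 mice and 1 one-color array per mouse, named WT replicates 2, 3, and 4 and Selenbp1-KO replicates 1, 2, and 3 after the labels. Differences below are Selenbp1-KO minus WT, on the log2 scale, of the signal relative to the 75th percentile of each array, and were tested with limma over all 56097 probes.

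Filtered sodium is taken back along the nephron in sequence. In the proximal tubule it enters cells through the sodium–proton exchanger NHE3. In the thick ascending limb it enters with potassium and chloride through NKCC2, while the ROMK channel returns potassium to the lumen. In the distal convoluted tubule it enters with chloride through NCC, and in the connecting tubule and collecting duct through the epithelial sodium channel ENaC, where ROMK secretes potassium. WNK kinases control the cation–chloride cotransporters through the kinases SPAK and OSR1, and NEDD4-2 is a ubiquitin ligase that removes ENaC from the cell surface. Transcript levels, measured here, do not report the phosphorylation or trafficking through which much of this control acts.

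With the scaling used here, none of the 21 probes met the criterion of the study's methods, an unadjusted p under 0.05. The background was 7.98% of all probes tested (1.51% lower in Selenbp1-KO kidneys) and 5.65% of those well above background. With the value table deposited by the authors, 3 of the 21 met this criterion, as 8.36% of all probes did. They were Wnk1 A_55_P1972688 and A_52_P82209 and Wnk4 A_55_P2728347, all lower in Selenbp1-KO kidneys. Their unadjusted p was 0.00801, 0.0384, and 0.0215, and their adjusted p 0.431, 0.563, and 0.505 (limma). The remaining values of this paragraph are from the scaling used here. The smallest unadjusted p among the 21 probes was 0.0681, and the smallest adjusted p was 0.279 (limma, Benjamini–Hochberg over all probes). Of all probes, 0.00357% had an adjusted p under 0.05. In Selenbp1-KO kidneys 18 probes were lower on average and 3 were higher, with differences from −0.65 to 0.11 and a median of −0.13. The 18 include 5 probes of Wnk1 and 4 of Nedd4l. By the brightest probe of each gene, 7 of the 10 genes were lower and 3 higher, with a median of −0.10. The median was 0.11 over all probes tested and 0.0033 over 28515 brighter probes, those with signal well above background on all 3 arrays of WT, of Selenbp1-KO, or of both. On 15 of the 21 probes the signal was well above background on all 6 arrays; 13 of these were lower and 2 higher. Of all probes tested, 18934 of 56097 were lower in Selenbp1-KO kidneys, and of the brighter probes 14021 of 28515. In whole kidney RNA, fewer cells of a type and less RNA per cell cannot be told apart.

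For 4 of the 21 probes every Selenbp1-KO array lay below every WT array, and for none did every Selenbp1-KO array lie above. Among all probes tested, 4.06% had all Selenbp1-KO arrays below all WT arrays, and among those well above background 6.81% did. These 4 probes were 3 of Wnk1 and 1 of Wnk4. The sample is small: 3 arrays against 3 cannot give an exact permutation p below 0.10. The limma p-values rest on the spread between these 6 mice and on limma's pooling of spread over all probes tested. That pooling can widen the error. The brightest Wnk1 probe had an SD of 0.056 in WT and 0.039 in Selenbp1-KO kidneys. The limma standard error of its difference, a measure unlike an SD within a genotype, was 0.0951. With spread pooled over the probes well above background alone, the standard error of the same difference was 0.0717.

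**Figure D1:**
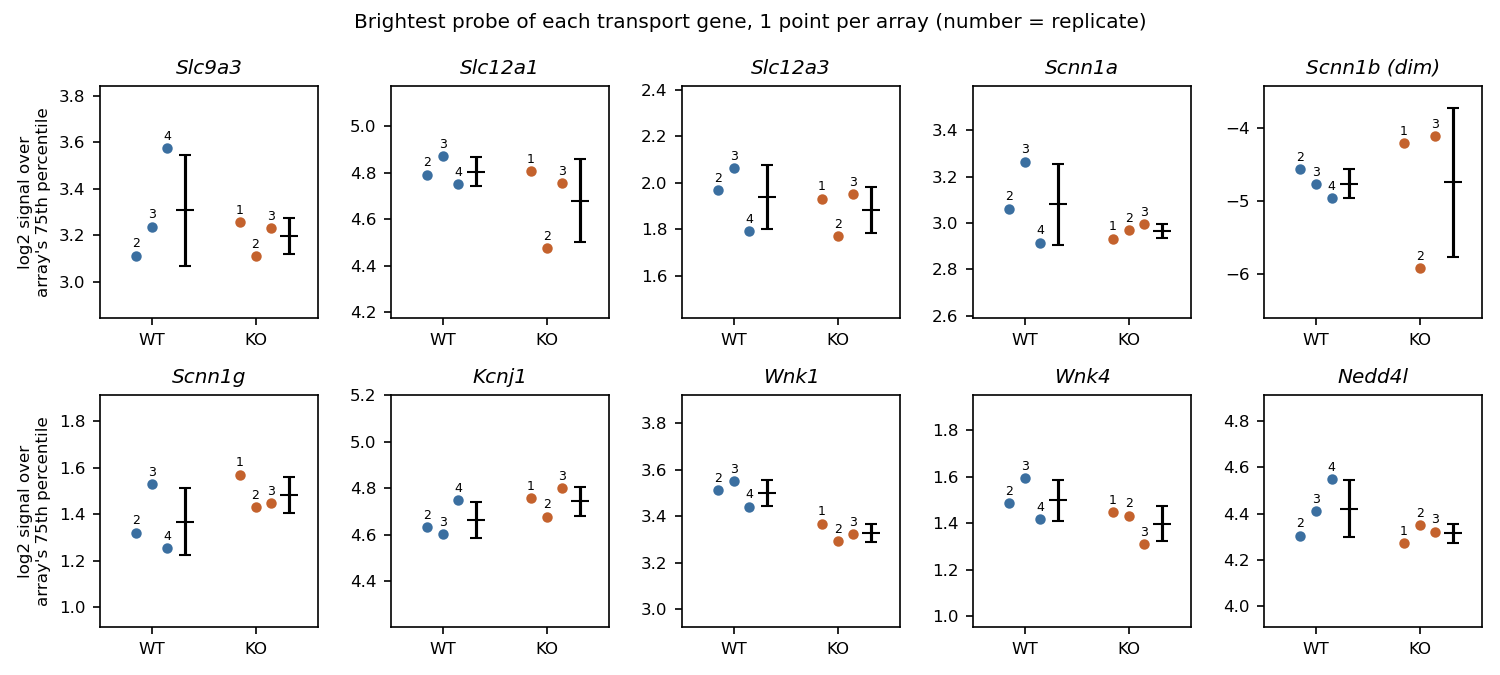
log2 signal relative to the array's 75th percentile (y axis) of the brightest probe of each gene in WT and Selenbp1-KO (KO) kidneys, 1 point per array, with the replicate number above it and the mean ± SD of 3 arrays at its right. The panels share 1 height in log2 units except Scnn1b, whose signal is near background, and the genotypes overlap for every gene but Wnk1.

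The apical sodium and chloride carriers were measured first. Slc9a3, which encodes NHE3, was read by a bright probe (A_55_P2362635, chr13:74306830-74306889 of mm9, plus strand). WT replicates 2, 3, and 4 gave log2 signals of 3.11, 3.24, and 3.57, and Selenbp1-KO replicates 1, 2, and 3 gave 3.25, 3.11, and 3.23; values below follow the same order. WT replicate 4 was the highest array, and the other 5 lay close together with the genotypes interleaved. The difference was −0.11 (standard error 0.148, 95% interval −0.47 to 0.25, unadjusted p = 0.490 in limma). Without WT replicate 4 it was 0.024. The sample labels give no slide side. A number in the names of the scanner output was taken as the side, and the labels do not say what it stands for. By this number WT replicate 4 was on the same side of the slide as all Selenbp1-KO arrays, and WT replicates 2 and 3 were on the other. With the side as a block, so that WT replicate 4 was the WT array compared, Slc9a3 differed by −0.38 (standard error 0.134). A second probe (A_52_P82701), which spans 607 bases of mm9 and so crosses an intron, was well above background on 2 WT arrays and 1 Selenbp1-KO array, with a difference of −0.031.

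Slc12a1, the NKCC2 gene and the target of loop diuretics, had a log2 signal of 4.79, 4.87, and 4.75 in WT and 4.81, 4.48, and 4.76 in Selenbp1-KO kidneys (A_52_P26118, chr2:125055224-125055283, plus strand). Selenbp1-KO replicate 2 was the lowest array, and the other 2 Selenbp1-KO arrays fell within the WT values. The difference was −0.13 (standard error 0.126, 95% interval −0.43 to 0.18, unadjusted p = 0.356 in limma), and without Selenbp1-KO replicate 2 it was −0.024. Its other probe was well above background on 1 array of each genotype and differed by −0.18.

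Slc12a3, the NCC gene and the target of thiazide diuretics, had 1.97, 2.06, and 1.79 in WT and 1.93, 1.77, and 1.95 in Selenbp1-KO kidneys (A_51_P445985, chr8:96875636-96875695, plus strand). The genotypes overlapped throughout, and the difference of −0.057 (standard error 0.120, 95% interval −0.35 to 0.24) was smaller than the spread among WT arrays (SD 0.138, n = 3). For these 3 carriers the intervals allow a Selenbp1-KO signal of 0.722 to 1.19 times that of WT for Slc9a3, 0.741 to 1.13 times for Slc12a1, and 0.785 to 1.18 times for Slc12a3. With 6 arrays, changes within these limits cannot be told from no change.

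ENaC is built from 3 subunits, and no probe of them passed the test. The alpha subunit gene Scnn1a had 3.06, 3.26, and 2.91 in WT and 2.93, 2.97, and 2.99 in Selenbp1-KO kidneys (A_51_P213691, chr6:125294843-125294902, plus strand). The 3 Selenbp1-KO arrays lay within the WT range, and the difference was −0.11 (standard error 0.122, 95% interval −0.41 to 0.18, unadjusted p = 0.385 in limma). A second Scnn1a probe, also well above background on all arrays, differed by −0.022.

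The gamma subunit gene Scnn1g was 1.32, 1.53, and 1.25 in WT and 1.57, 1.43, and 1.45 in Selenbp1-KO kidneys (A_51_P245558, chr7:128911434-128911493, plus strand). Its mean was higher in Selenbp1-KO kidneys, by 0.11 (standard error 0.118, 95% interval −0.17 to 0.40, unadjusted p = 0.368 in limma), and WT replicate 3 lay among the Selenbp1-KO arrays.

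The beta subunit gene Scnn1b was near background on this array. Its probe (A_55_P2934457, chr7:129042869-129042928, plus strand) was well above background on 2 arrays of each genotype, with −4.56, −4.77, and −4.96 in WT and −4.20, −5.92, and −4.11 in Selenbp1-KO kidneys. Selenbp1-KO replicate 2 was far below the other 5, and the difference of 0.020 has a 95% interval of −1.19 to 1.23. Without Selenbp1-KO replicate 2, Scnn1b was higher by 0.61 (unadjusted p = 0.0123, adjusted p = 0.523 in limma; 5.01% of all probes passed there), and over the settings that kept its probe it lay between −0.35 and 0.61, so its direction was not determined.

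Kcnj1, which encodes ROMK, had 4.63, 4.60, and 4.75 in WT and 4.76, 4.68, and 4.80 in Selenbp1-KO kidneys (A_52_P499907, chr9:32206612-32206671, plus strand). WT replicate 4 lay among the Selenbp1-KO arrays, while WT replicates 2 and 3 were the lowest. The difference was 0.083 (standard error 0.101, 95% interval −0.16 to 0.33, unadjusted p = 0.443 in limma), which allows 0.893 to 1.26 times the WT signal. Within the slide side that holds WT replicate 4 the difference was −0.0050.

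**Figure D2:**
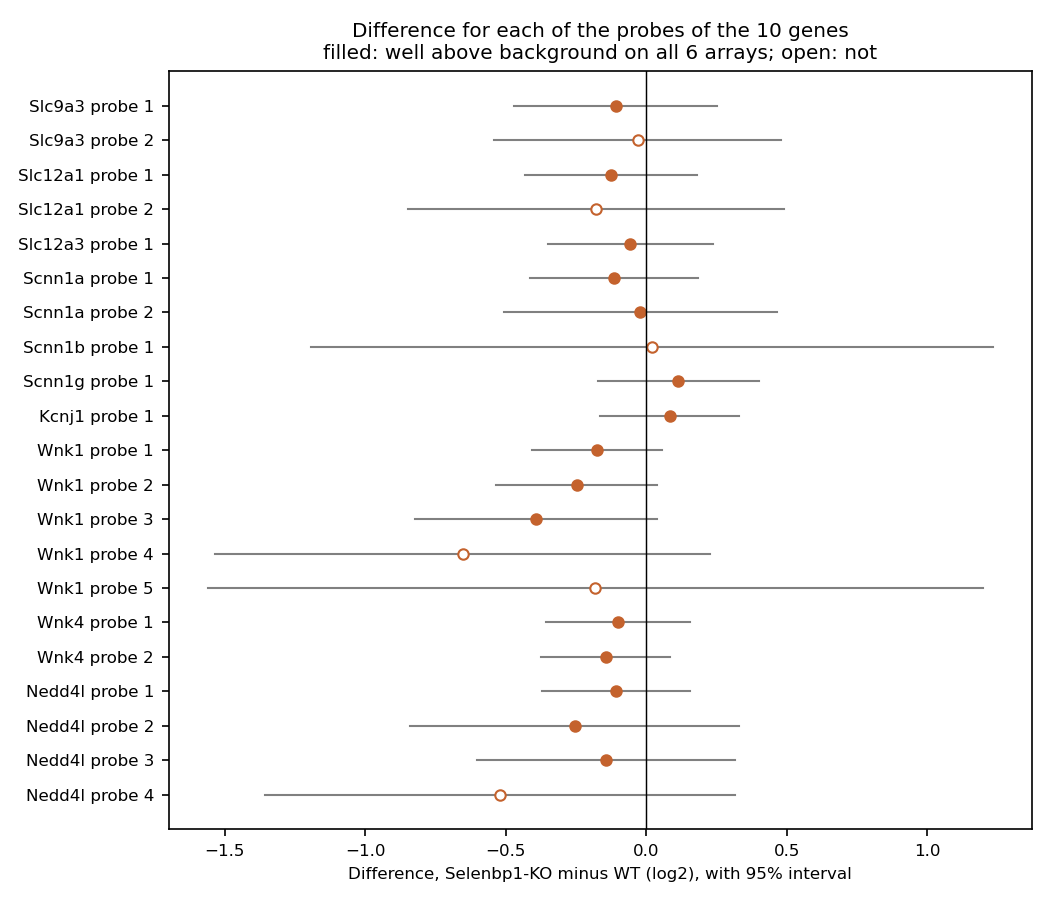
Difference between Selenbp1-KO and WT (x axis, log2) for each of the 21 probes, with its 95% interval from limma; probes of a gene are numbered from the brightest. Filled points are probes well above background on all 6 arrays. Every interval includes 0, and the Wnk1 probes 1 to 3 have upper limits nearest to it.

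The 4 member probes whose genotypes did not overlap were all of the WNK kinases. By the brightest probe of each gene, 1 of the 10 genes, Wnk1, was without overlap. Wnk1 has 5 probes on the array and Wnk4 has 2. The longest run of bases that any pair of these 7 probes shares is 4 to 7, so no probe repeats the sequence of another. All were read in the same mice, so the probes of a gene are not separate observations. Below are 2 Wnk1 probes and both Wnk4 probes, as the scanner output gives them, to identify what was read at the probes whose values follow; each is 60 bases long.

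Wnk1 probe A_52_P82209: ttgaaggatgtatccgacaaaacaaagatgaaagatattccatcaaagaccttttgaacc

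Wnk1 probe A_55_P2643836: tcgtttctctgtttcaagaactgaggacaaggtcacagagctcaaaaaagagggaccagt

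Wnk4 probe A_55_P2728347: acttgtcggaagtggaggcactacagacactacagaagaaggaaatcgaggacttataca

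Wnk4 probe A_51_P486217: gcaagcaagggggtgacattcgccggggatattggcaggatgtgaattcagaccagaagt

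On the minus strand of chromosome 6, the first of these Wnk1 probes lies most 5′ of the 5 (chr6:119921070-119922819 of mm9, a span of 1750 bases, so that it crosses an intron). The second lies toward the 3′ end (chr6:119887693-119887752), and the brightest Wnk1 probe, A_55_P1972688, lies most 3′ (chr6:119874366-119874425). The Wnk4 probes lie on the plus strand of chromosome 11, A_55_P2728347 at chr11:101137794-101137853 and A_51_P486217 at chr11:101138198-101138364, the latter spanning 167 bases and so crossing an intron.

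The brightest Wnk1 probe had a log2 signal of 3.51, 3.55, and 3.44 in WT and 3.37, 3.29, and 3.32 in Selenbp1-KO kidneys. All 3 Selenbp1-KO arrays were below all 3 WT arrays, by little. The difference was −0.17 (standard error 0.0951, 95% interval −0.41 to 0.058, unadjusted p = 0.116 and adjusted p = 0.344 in limma).

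The most 5′ probe, A_52_P82209, had 0.35, 0.39, and 0.36 in WT and 0.29, −0.02, and 0.09 in Selenbp1-KO kidneys. The WT arrays were nearly equal and the Selenbp1-KO arrays were spread below them. The difference was −0.25 (standard error 0.117, 95% interval −0.53 to 0.038, unadjusted p = 0.0781 in limma).

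The third bright probe, A_55_P2643836, had −1.66, −1.64, and −1.43 in WT and −1.71, −2.29, and −1.90 in Selenbp1-KO kidneys. Selenbp1-KO replicate 1 was just below the lowest WT array and Selenbp1-KO replicate 2 was well below. The difference was −0.39 (standard error 0.177, 95% interval −0.82 to 0.040, unadjusted p = 0.0681 in limma), or 0.762 times the WT signal with an interval of 0.565 to 1.03.

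On these 3 probes Selenbp1-KO replicate 1 was the highest of the Selenbp1-KO arrays and Selenbp1-KO replicate 2 the lowest. The remaining 2 Wnk1 probes, A_55_P2185811 and A_51_P292460, lie between the most 5′ probe and the others. They were not well above background on any array, and their genotypes overlapped, so no difference is read from them. The kidney makes a short Wnk1 form without a complete kinase domain beside the full-length kinase, and which form each probe reads was not tested.

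Wnk4, whose mutations cause familial hyperkalemic hypertension, had 0.44, 0.41, and 0.34 in WT and 0.26, 0.21, and 0.28 in Selenbp1-KO kidneys at A_55_P2728347. The Selenbp1-KO arrays were again all below the WT arrays, with a difference of −0.14 (standard error 0.0942, 95% interval −0.37 to 0.086, unadjusted p = 0.178 in limma). The brighter probe, A_51_P486217, had 1.49, 1.59, and 1.42 in WT and 1.45, 1.43, and 1.31 in Selenbp1-KO kidneys. Here WT replicate 4 lay below 2 of the 3 Selenbp1-KO arrays, and the difference was −0.10 (standard error 0.105, 95% interval −0.36 to 0.15).

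**Figure D3:**
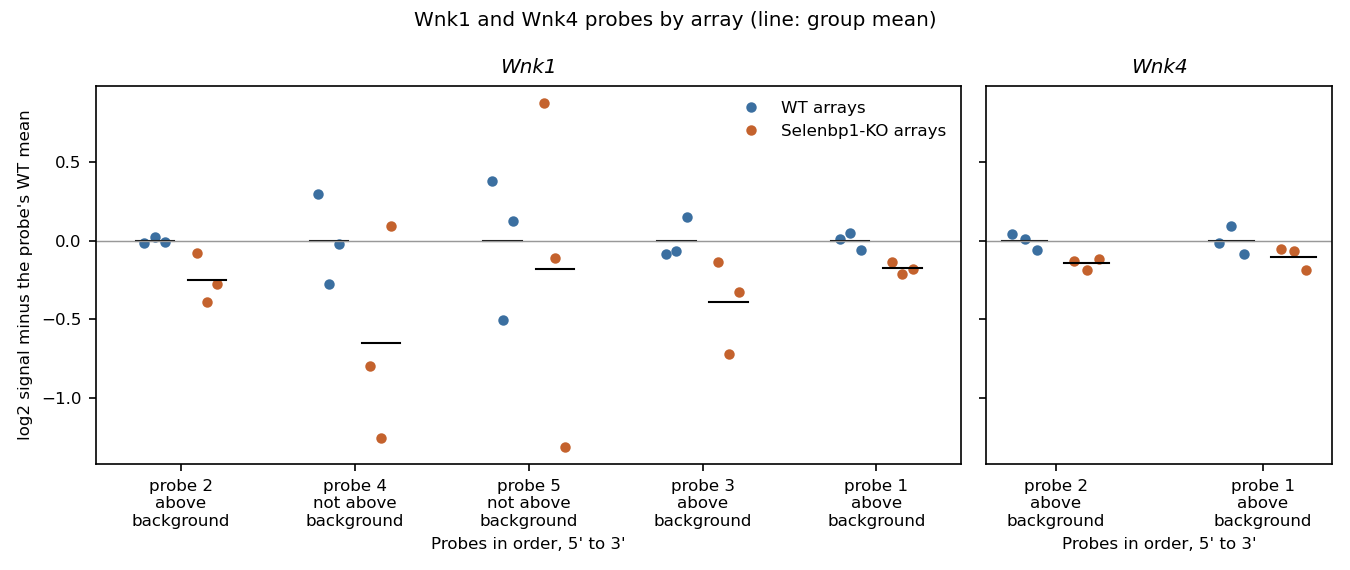
log2 signal of each Wnk1 and Wnk4 probe minus its mean in WT (y axis), 1 point per array, with a line at each group mean; probes stand in order from 5′ to 3′ and are numbered from the brightest. The Selenbp1-KO arrays lie below all WT arrays at Wnk1 probes 2, 3, and 1 and at Wnk4 probe 2, while the 2 Wnk1 probes not above background scatter on both sides.

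The Wnk1 and Wnk4 differences kept their sign and not their side of the threshold. The 3 bright Wnk1 probes and both Wnk4 probes were lower in Selenbp1-KO kidneys in all 16 alternative settings. These are not 16 separate checks of sign. The background filter, no filter, keeping flagged spots, and the trend and robust options left these differences unchanged. Median scaling moved all probes by the same amount. With quantile normalization of the arrays, which gave all probes a median difference of 0.0012 in place of 0.11, the brightest Wnk1 probe fell by 0.21 (standard error 0.0476, unadjusted p = 0.00819, adjusted p = 0.432 in limma). The Wnk1 probe A_52_P82209 and the Wnk4 probe A_55_P2728347 also passed the unadjusted threshold there, with unadjusted p = 0.0384 and 0.0217, and 8.35% of all probes did. The 3 bright Wnk1 probes passed when only probes well above background were tested (9.96% of probes passed) and with limma's trend and robust options (13.4% of probes passed). Without Selenbp1-KO replicate 1, A_52_P82209 and A_55_P2643836 passed as well (unadjusted p = 0.0451 and 0.0332 in limma; 5.76% of probes passed). With the side of the slide as a block, that is against WT replicate 4 alone, none of the 5 passed, and their differences were −0.11, −0.24, and −0.54 for Wnk1 and −0.088 and −0.019 for Wnk4. The smallest adjusted p of a member probe over the 16 settings was 0.113, at Wnk1 A_51_P292460, which was not well above background, with the replicate number as a block.

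Nedd4l, which encodes NEDD4-2, has 4 probes on chromosome 18, and all 4 had lower means in Selenbp1-KO kidneys. The brightest (A_66_P133816) had 4.30, 4.41, and 4.55 in WT and 4.27, 4.35, and 4.32 in Selenbp1-KO kidneys. WT replicate 4 was the highest array and WT replicate 2 lay among the Selenbp1-KO arrays. Between genotypes the difference was −0.11 (standard error 0.108, 95% interval −0.37 to 0.16, unadjusted p = 0.363 in limma). The other 3 probes differed by −0.25, −0.14, and −0.52 with overlapping genotypes, and the last was well above background on 3 WT arrays and 1 Selenbp1-KO array. As for Slc9a3, WT replicate 4 was the highest array of a further probe, A_55_P2030756, which with the side of the slide as a block differed by −0.54 (unadjusted p = 0.00698, adjusted p = 0.421 in limma).

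**Figure D4:**
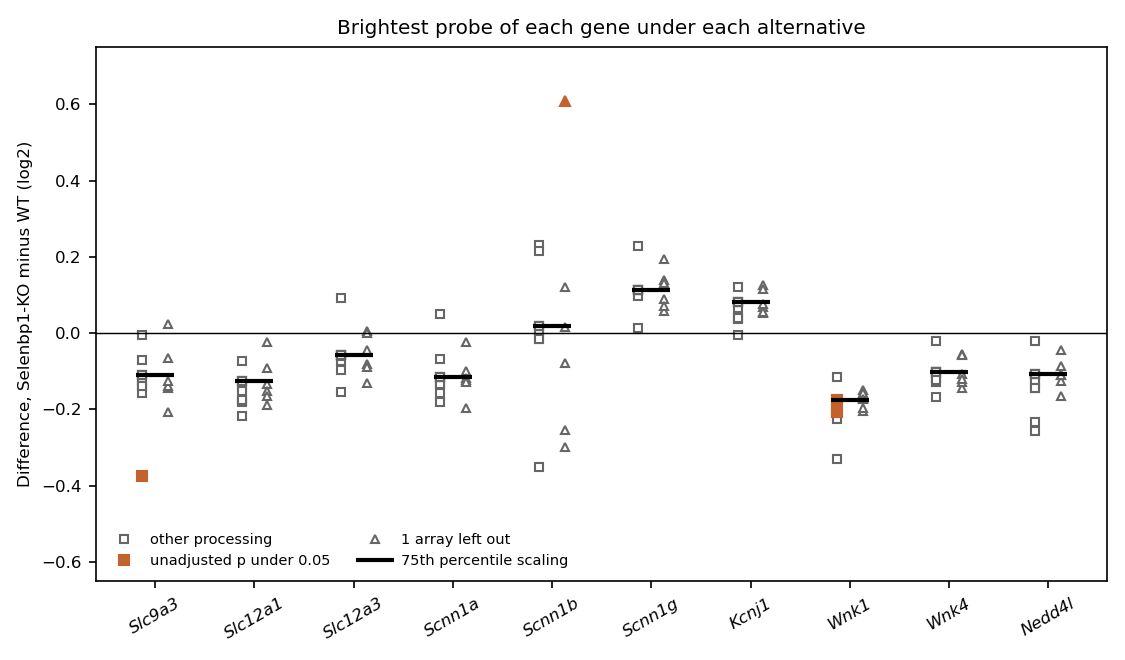
Difference between Selenbp1-KO and WT (y axis, log2) of each gene's brightest probe under the 75th percentile scaling (black bar), under other processing (squares), and with 1 array left out (triangles). Orange symbols have an unadjusted p under 0.05. Wnk1, Wnk4, Slc12a1, and Nedd4l stay below 0 and Scnn1g above it in every setting, and Scnn1b scatters from −0.35 to 0.61.

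The members whose brightest probes were most alike over the 6 arrays were Slc9a3 and Nedd4l (Pearson r = 0.816, Spearman rho = 0.257), Slc12a1 and Scnn1b (r = 0.798, rho = 0.486), and Slc12a1 and Slc12a3 (r = 0.791, rho = 0.829), the first 3 of 45 pairs. These are descriptions over 6 arrays that share one slide and one scaling. The first rests on WT replicate 4, without which r was 0.0026, and the second on Selenbp1-KO replicate 2, without which r was −0.18. For Slc12a1 and Slc12a3, the cotransporters of neighboring segments, r ranged from 0.730 to 0.954 with any 1 array left out.

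Around these 10 genes, 51 further salt transport genes in 6 lists were read by their brightest probes. In Selenbp1-KO kidneys 1 of the 51 rose, none fell at an unadjusted p under 0.05, 22 had higher and 29 lower means, and the median difference was −0.039. Of all genes, 8% passed the threshold and 6.87% did so with a higher value in Selenbp1-KO kidneys. The number that passed was 0 without WT replicate 2 or without Selenbp1-KO replicate 1, and 5 without WT replicate 4, when 3.61%, 5.76%, and 31.3% of all probes passed. None of the 51 passed at an adjusted p under 0.05.

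The gene that rose was Kcne1, a potassium channel beta subunit of the tubule. Its log2 signal was −0.95, −0.76, and −0.88 in WT and −0.64, −0.55, and −0.62 in Selenbp1-KO kidneys, with no overlap. The difference was 0.26 (standard error 0.103, unadjusted p = 0.0425, adjusted p = 0.279 in limma), and it no longer passed in 9 of 17 alternatives; of the 6 fits with 1 array left out it passed in that without WT replicate 3. Among the other 9 tubular potassium channel genes, Kcnj15 differed by −0.27 (unadjusted p = 0.0726 in limma) with no overlap of the genotypes. Kcnj15 was lower in all 17 alternatives, from −0.38 to −0.13, and passed the unadjusted threshold in 6 of them. Kcnj16, a basolateral channel subunit, differed by −0.12. Genotypes did not overlap, in either direction, for 13.3% of all probes tested and 17.6% of those well above background.

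Sodium leaves the cell by the basolateral pump. Fxyd2, which encodes a regulatory subunit of the sodium pump, differed by 0.20 (standard error 0.156). WT replicates 2 and 3 were below all Selenbp1-KO arrays and WT replicate 4 was not. Against WT replicate 4 alone the difference was −0.074, and without it 0.33 (unadjusted p = 0.0383 in limma), in a fit where 31.3% of all probes passed. None of the 6 genes of the pump and basolateral exit passed the test with all 6 arrays.

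Of the 13 scaffolds and other carriers none passed, with 8 higher and 5 lower; the NHE3 scaffold gene Pdzk1 differed by 0.082, and Ezr, which links NHE3 to the cytoskeleton, by −0.10. All 4 chloride channel genes had lower means without passing, among them Bsnd, which encodes the channel subunit barttin, at −0.039. In the WNK cascade, 2 of 8 genes were higher and 6 lower, none passed, and Stk39, which encodes SPAK, and the adaptor Cab39 differed by −0.043 each. Of the 10 genes of the aldosterone pathway and ENaC regulation none passed, and the protease gene Furin differed by 0.080. Sgk1, an aldosterone-induced kinase that acts on NEDD4-2, differed by −0.073 at its brightest probe. The mean of its 2 probes differed by 0.16, in the other direction.

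**Figure D5:**
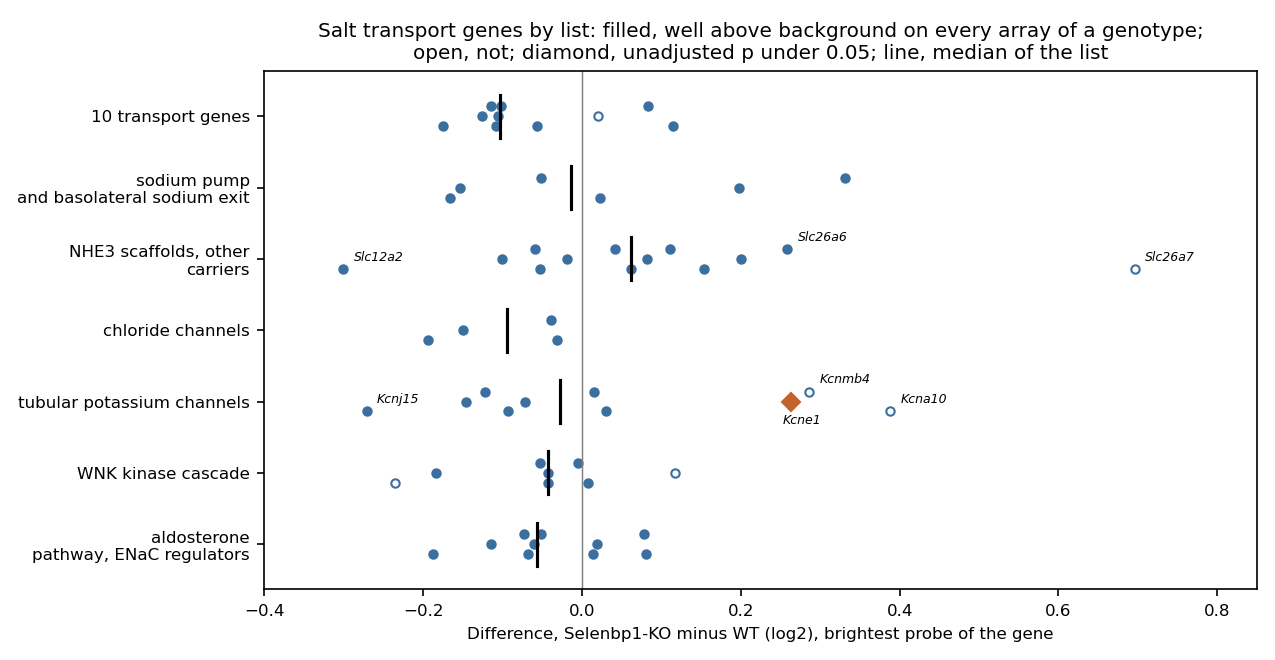
Difference between Selenbp1-KO and WT (x axis, log2) of each gene's brightest probe, for the 10 transport genes and the 6 further lists (rows), with the median of each list as a line. Open points were not well above background on all 3 arrays of either genotype. Kcne1 (diamond) is the gene with an unadjusted p under 0.05, and some of the genes beyond 0.25 on either side are named.

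The labels and the tissue were checked on the same arrays. Selenbp1 had 7.07, 7.02, and 7.02 in WT and 4.13, 3.98, and 4.10 in Selenbp1-KO kidneys, so each array matched its label. Markers of proximal tubule, thick ascending limb, principal cells, intercalated cells, and glomerulus were measured and none of their 26 entries passed the unadjusted threshold (Fxyd4 and Hsd11b2 stand in the principal cell list and in a transport list); of 4 distal convoluted tubule markers, Pvalb rose by 0.32 (unadjusted p = 0.0240 in limma), while Slc12a3 of the same segment differed by −0.057 as given above. At the same threshold red blood cell markers rose in 3 of 3 (summed signal 253 to 341 times the 75th percentile in WT and 360 to 529 in Selenbp1-KO kidneys), and macrophage markers in 2 of 4 (9.39 to 11.1 and 11.1 to 12.0). Fat markers rose in 0 of 4 (3.15 to 10.5 and 4.63 to 26.0), and 3 of 4 adrenal cortex markers (Cyp11b1, Cyp11b2, and Mc2r) were not well above background on any array. The part of blood, macrophages, or fat in the members' differences was not tested. The 75th percentile of the raw signal was 477 to 751, highest in WT replicates 2 and 3, and 51.8% to 55.5% of spots were well above background.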

How the data were processed

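Kidney RNA of 6 mice was measured on one-color Agilent arrays, 62976 spots each, on 1 slide. The authors deposited the Feature Extraction output (version 10.7.1.1 per the file headers, 9.5.1.1 in the submitters' processing notes): linear intensities, background-subtracted within the array and not scaled between arrays, a detection p-value per spot deposited by the authors with it, and flags. A value table deposited by the authors holds linear intensities with equal column medians (4.61 after log2) that rank probes as the scanner output does. With it 4687 probes passed, against 4686 with quantile normalization and 14616 with median scaling, so it was taken to be quantile normalized. The software behind that table is not given in the sources used here. The labels name a 44K array version 2, whereas the files give a design of 62976 spots; coordinates are those of the files (mm9).

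The log2 intensity was taken relative to each array's 75th percentile. Spots flagged as outliers were left out, spots of a probe averaged, and probes detected (p under 0.05) on 1 or more of the 6 arrays tested with limma (version 3.58.1, R 4.3.3; lmFit, eBayes, two-sided), which was tested on simulated data. Following the methods, an unadjusted p under 0.05 counted as a difference, with Benjamini–Hochberg values over all 56097 probes beside it; intervals are 95%. The brightest probe by its mean over all arrays stands for a gene. RefSeq (GRCm38.p6, for names alone) gave 16 of the 21 member probes the same gene name by accession; the other 5 keep the file's name.

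Named are all members with every probe; of each further list, genes passing the threshold and, where fewer than 2 pass, the 2 brightest; and the 3 most correlated member pairs. The members and lists were chosen with earlier results of these data known. Alternatives were normexp background correction (offset 50), quantile normalization, median scaling, the authors' value table, a filter on probes well above background, no filter, keeping flagged spots, the trend and robust options of limma (statmod 1.5.0), blocks for slide side and for replicate number, omission of each array, and the mean of a gene's probes. The authors' columns were all matched to a sample. Some genes that this rule names are not reported here. The study's other assays were not analysed here.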

Additional observations from a re-analysis of the deposited data

How the results depend on the processing

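Among the 21 member probes, 3 passed with quantile normalization, 3 with the authors' value table, 3 when dim probes were left out, 3 with the trend and robust options, 2 with the side of the slide as a block, and from 0 to 2 with 1 array left out; the other settings except the replicate block gave 0. The number that passed over all probes was 4479 (81.1% higher in Selenbp1-KO kidneys), against 4686 (54.8% higher) with quantile normalization, 3651 (37.3% higher) with the side of the slide as a block, 14616 with median scaling, 2841 without dim probes, and 7536 with the trend and robust options, and with 1 array left out it ranged from 2024 (without WT replicate 2) to 17585 (without WT replicate 4). Of the 51 further genes, 2 passed with normexp, 8 with quantile normalization, 8 with the authors' table, 2 with median scaling, 4 without dim probes, 6 with the trend and robust options, 0 with the slide side, and 0 to 5 with 1 array left out. Of the genes that passed, those lower in Selenbp1-KO kidneys were 2 with normexp, 7 with quantile normalization, and 7 with the authors' table. They were 1 with median scaling, 3 without dim probes, and 4 with the trend and robust options. WT and Selenbp1-KO arrays share the numbers 2 and 3 but come from different mice. Same-numbered deviations correlated at 0.171 and 0.187. With the replicate number as a block, 18430 probes passed in all, 1 member probe (Wnk1 A_51_P292460, near background) and 2 of the 51 genes.

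Some differences changed sign, and the cause was not tested. With the slide side as a block Slc12a3 was 0.093, Scnn1a 0.050, Kcnj1 −0.0050, Fxyd2 −0.074, Pdzk1 −0.017, Furin −0.12, and Sgk1 0.23. With quantile normalization and the authors' table Scnn1b was −0.015 in both, Fxyd2 −0.044 and −0.045, Furin −0.054 in both, and Pdzk1 −0.0080 and −0.0064. With the replicate block Scnn1b was −0.35, Bsnd 0.012, and Cab39 0.0075, and with the mean of a gene's probes Sgk1 was 0.16. With 1 array left out, Slc9a3 ranged from −0.21 to 0.024 (above 0 without WT replicate 4), Slc12a3 from −0.13 to 0.0047 (above 0 without WT replicate 3 or Selenbp1-KO replicate 2), Scnn1b from −0.30 to 0.61, Bsnd from −0.096 to 0.010, Cab39 from −0.080 to 0.024, and Sgk1 from −0.23 to 0.052. The number of arrays and, for 6 of the 21 probes, signal near background limit these comparisons.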
